A study of Rattus norvegicus with 6 samples.

Results

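The STAT transcription factors and the SOCS family of feedback inhibitors were described in rat donor hearts on day 1 after heterotopic heart transplantation. The 9 genes Socs1, Socs2, Socs3, Cish, Stat2, Stat3, Stat4, Stat5a and Stat6 were taken by their symbols from a table of 22250 genes. The table held 8 of the 9 under those symbols, and all 8 passed the filter on low counts, so that Stat4 was not analysed here. RNA-Seq of polyadenylated RNA from left ventricular myocardium was available for 3 young donor hearts (donors of 10 weeks, animals 3, 13 and 15) and 3 aged donor hearts (donors of 1 year, animals 3, 4 and 7). All donors were male Sprague-Dawley rats of the WT genotype, all hearts were kept in cold University of Wisconsin solution before transplantation, and all were placed in young recipient rats. These RNA-Seq libraries thus compare donor ages after storage and grafting, and they include no group of hearts that were not transplanted. Each group has its own animal numbers, and young 3 and aged 3 are different hearts.

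Cytokines and growth hormone bind receptors that carry JAK kinases. The kinases phosphorylate STAT proteins, which pair, enter the nucleus and bind short palindromic DNA sites to switch genes on. Among these genes are the SOCS family inhibitors, which bind the receptor or the kinase and end the signal, so that their mRNA is commonly read as a trace of recent STAT activity. Socs3 is known as the inhibitor of gp130 receptors, which serve interleukin 6 and its relatives through Stat3. Socs1 restrains interferon and interleukin 4 signals. Cish and Socs2 are classic genes of the growth hormone and Stat5 branch. In the heart, the gp130 and Stat3 branch is known for protecting cardiomyocytes under stress.

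The stretch of 250 bases before the start of Cish and of Socs1 is shown because these were the 2 genes among the members in which the common STAT site TTCNNNGAA was found. The sequences come from RefSeq, build GRCr8, plus strand, 5′ to 3′, and the matches are in capitals. That of Socs1 lies at chr10:5389324-5389573 and that of Cish at chr8:116850719-116850968.
Socs1: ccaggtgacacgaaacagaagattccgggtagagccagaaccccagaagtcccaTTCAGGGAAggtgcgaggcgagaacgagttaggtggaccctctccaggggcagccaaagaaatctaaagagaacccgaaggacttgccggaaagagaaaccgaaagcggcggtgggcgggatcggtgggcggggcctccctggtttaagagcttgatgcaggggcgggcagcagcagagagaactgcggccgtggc
Cish: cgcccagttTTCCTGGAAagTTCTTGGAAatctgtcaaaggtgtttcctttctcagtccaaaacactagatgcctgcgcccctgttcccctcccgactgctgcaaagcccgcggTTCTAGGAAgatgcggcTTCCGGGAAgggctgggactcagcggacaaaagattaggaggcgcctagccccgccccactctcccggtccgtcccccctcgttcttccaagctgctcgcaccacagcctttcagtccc
Cish held 4 matches, TTCCTGGAA, TTCTTGGAA, TTCTAGGAA and TTCCGGGAA, and Socs1 held 1, TTCAGGGAA. The pattern reads the same on both strands. Of 33469 windows from 250 bases before to 50 bases after a gene's start, 8.87% held the pattern at least 1 time, and 2 windows (0.00598%) held it at least 4 times. The other 6 members with such a window (Socs3, Stat2, Stat3, Stat4, Stat5a and Stat6) had no match in these letters. The same letters with 4 in place of 3 bases between them, present in 7.28% of the windows, was found in 0 of the 8 members. No window was given for Socs2. A match is a description of letters and not of a bound site.

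The libraries held 21457509 to 22277905 counts in young and 22508040 to 24560869 in aged donor hearts, and 1 member had as few as 13 reads in a heart. Values below are library-scaled counts (CPM), with library sizes adjusted by TMM, edgeR's trimmed mean method. The 2 groups were tested with edgeR's quasi-likelihood model over 13784 genes. The limits of the study were used, an unadjusted p under 0.05 together with a fold change over 1.5 or under 0.67, and "rose" and "fell" mean past them. After Benjamini-Hochberg adjustment, 0 genes had an adjusted p under 0.05 in edgeR, against 4731 with an unadjusted p under 0.05 and 3592 with an adjusted p under 0.05 in DESeq2. For a single value, 0.1 is the lowest two-sided p that an exact permutation test reaches with 3 hearts against 3. Young 15 stood apart from young 3 and 13 in many genes, and without it edgeR gave 6815 genes with an adjusted p under 0.05. The summed level of 10 cardiomyocyte markers was 77028, 86390 and 11928 CPM in young 3, 13 and 15, and 144.5, 6574 and 6374 CPM in aged 3, 4 and 7, so 1 library labelled as myocardium held little cardiomyocyte mRNA. The summed level of 10 neutrophil markers was 16.9, 17.5 and 152.3 CPM in the young and 1513, 393.0 and 860.7 CPM in the aged hearts. In bulk tissue, fewer cells of a type and less RNA per cell cannot be told apart.

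The feedback inhibitors split in opposite directions in aged donor hearts. Socs3 and Socs1 rose, while Socs2 and Cish fell, so that each of the 4 SOCS family members passed the limits. Of the STAT factors, Stat6 rose, and Stat2, Stat3 and Stat5a did not pass the limits. In all, 3 of the 8 members tested rose, where 13.2% of all genes tested did, and 2 of the 8 fell, where 19.0% of all genes did. All 3 aged hearts lay above all 3 young hearts in 4 members (Socs1, Socs3, Stat5a and Stat6), against 21.0% of all genes, and below them in 2 (Socs2 and Cish), against 20.6% of all genes. The median log2 fold change was 0.39 over the 8 members and 0.016 over all genes tested.

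**Figure D1:**
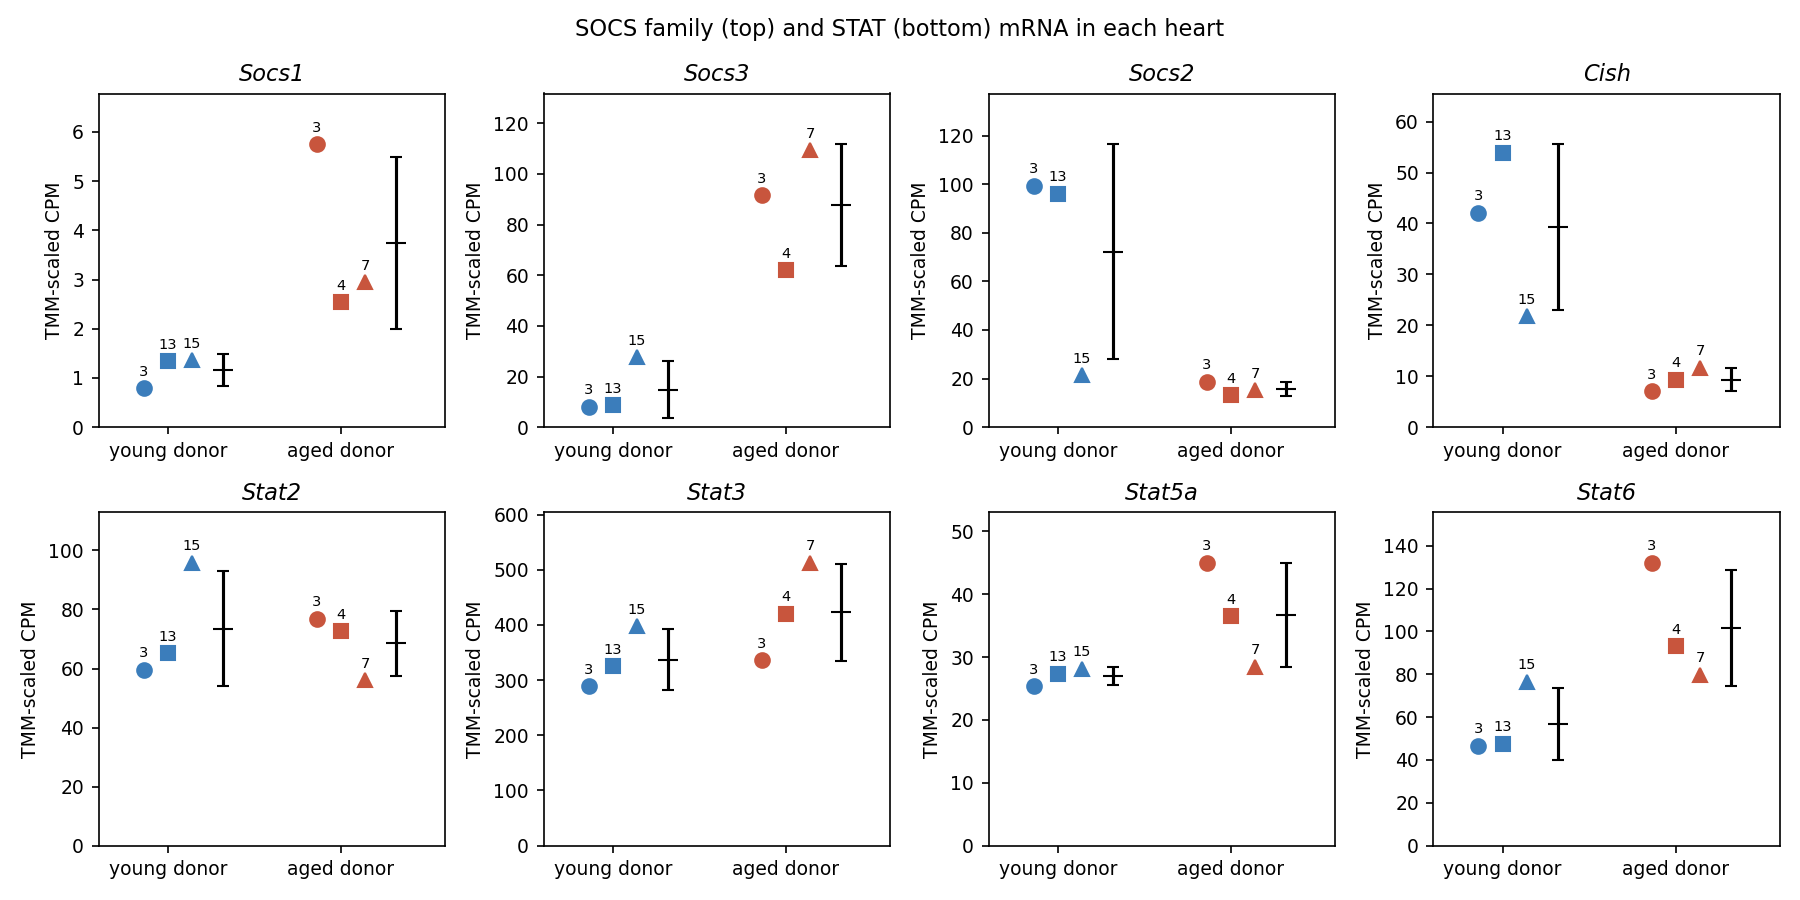
TMM-scaled CPM (y axis, from 0) of the 4 SOCS family genes in the upper row and the 4 STAT genes in the lower row, by donor group (x axis). Each point is 1 heart labelled with its animal number, and bars show the mean ± SD of 3 hearts. Socs1 and Socs3 are higher and Socs2 and Cish lower in all 3 aged hearts, and young 15 lies nearest the aged hearts in Socs2, Socs3 and Cish.

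Socs3 (ENSRNOG00000002946, chr10:106975178-106976040, minus strand, Rnor_6.0), the gp130 inhibitor, had the largest change among the members. Its level was 8.11, 8.58 and 27.7 CPM in young 3, 13 and 15, and 91.6, 61.9 and 109.4 CPM in aged 3, 4 and 7. Every aged heart was above every young heart, and young 15 was the highest of the young. The mean rose from 14.8 ± 11.2 CPM (SD, n = 3) to 87.7 ± 24.0 CPM (SD, n = 3), which is 5.93-fold. The log2 fold change was 2.56 (standard error 0.556, 95% interval 1.22 to 3.90, unadjusted p = 0.00311, adjusted p = 0.0916, edgeR). Leaving out young 15 raised it to 3.43, with an adjusted p of 0.00136 in edgeR.

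Socs1 (ENSRNOG00000002568, chr10:4957326-4958461, plus strand, Rnor_6.0), the inhibitor of interferon and interleukin 4 signals, was the least abundant member by reads. The hearts held 13, 21 and 33 reads in the young group and 175, 67 and 77 in the aged group. Scaled for depth, this was 0.786, 1.34 and 1.36 CPM against 5.75, 2.54 and 2.95 CPM. The aged hearts were all above the young ones, with aged 3 the highest. The mean rose from 1.2 ± 0.33 CPM (SD, n = 3) to 3.75 ± 1.75 CPM (SD, n = 3), a log2 fold change of 1.68 (standard error 0.453, 95% interval 0.59 to 2.77, unadjusted p = 0.00888, adjusted p = 0.0919, edgeR). Over the fits that each left out 1 heart it ran from 1.24 to 1.90 and stayed past the limits.

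Socs2 (ENSRNOG00000008965, chr7:36495480-36499784, minus strand, Rnor_6.0), which is induced by growth hormone and restrains its receptor, was high in only part of the young group. Its level was 99.4, 96.1 and 21.4 CPM in young 3, 13 and 15, and 18.7, 13.04 and 15.2 CPM in aged 3, 4 and 7. The groups did not overlap, but young 15 lay close to the aged hearts and far from the other young hearts. The mean fell from 72.3 ± 44.1 CPM (SD, n = 3) to 15.6 ± 2.83 CPM (SD, n = 3). The log2 fold change was -2.21 (standard error 0.572, 95% interval -3.59 to -0.83, unadjusted p = 0.00744, adjusted p = 0.0916, edgeR), and it was -2.60 without young 15.

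Cish (ENSRNOG00000029543, chr8:116054465-116060723, plus strand, Rnor_6.0), the founding gene of the family and the one with 4 STAT site matches in the stretch shown, had 42.1, 53.9 and 21.8 CPM in young 3, 13 and 15. In aged 3, 4 and 7 it had 7.03, 9.29 and 11.6 CPM. Every aged heart was below every young heart. Its mean fell from 39.3 ± 16.2 CPM (SD, n = 3) to 9.32 ± 2.31 CPM (SD, n = 3), so the young mean was 4.21-fold the aged mean. Its log2 fold change was -2.07 (standard error 0.386, 95% interval -3.01 to -1.14, unadjusted p = 0.0014, adjusted p = 0.0916, edgeR), with the smallest unadjusted p among the members. Socs1, Socs2, Socs3 and Cish were each past the limits in 14 of 14 settings (the test described, 7 other scalings, filters or tests and 6 fits without 1 heart), and in DESeq2 their adjusted p-values were 0.00875, 0.0030, 3.26e-04 and 1.11e-04.

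Stat6 (ENSRNOG00000025023, chr7:70946228-70964484, plus strand, Rnor_6.0), the factor of interleukins 4 and 13, was the only STAT member past the limits. Its level was 46.6, 47.6 and 76.4 CPM in young 3, 13 and 15, and 132.0, 93.1 and 79.7 CPM in aged 3, 4 and 7. The groups did not overlap, with young 15 next to aged 7. The mean rose from 56.9 ± 16.9 CPM (SD, n = 3) to 101.6 ± 27.1 CPM (SD, n = 3), a log2 fold change of 0.84 (standard error 0.295, 95% interval 0.13 to 1.55, unadjusted p = 0.0276, adjusted p = 0.114, edgeR). This call was lost without young 3 (0.71), without young 13 (0.72) and without aged 3 (0.61).

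Stat3 (ENSRNOG00000019742, chr10:88790408-88842233, minus strand, Rnor_6.0), the factor of the gp130 receptors, was the most abundant STAT member and had the most reads of all members. It stood at 288.5, 325.6 and 397.8 CPM in young 3, 13 and 15 and at 336.3, 420.6 and 512.5 CPM in aged 3, 4 and 7, and the groups overlapped. The means were 337.3 ± 55.6 and 423.1 ± 88.1 CPM (SD, n = 3 each). The log2 fold change of 0.33 had a 95% interval from -0.32 to 0.97 (unadjusted p = 0.265, adjusted p = 0.394, edgeR), so a change of that size was within the spread between hearts.

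Stat5a (ENSRNOG00000019496, chr10:88764732-88789057, plus strand, Rnor_6.0), a factor of growth hormone and prolactin, had 25.3, 27.3 and 28.1 CPM in the young and 45.0, 36.5 and 28.5 CPM in the aged hearts. The aged hearts were all above the young ones, aged 7 by a margin smaller than the spread in either group. The log2 fold change was 0.44 (standard error 0.209, 95% interval -0.059 to 0.95, unadjusted p = 0.0744, adjusted p = 0.178, edgeR). It passed the limits without aged 7 (0.60) and with library totals in place of TMM (0.89). Stat5b is a near-identical neighbour 9902 bases away, and reads that match both may have been divided between them or dropped, so the Stat5a counts are uncertain. Stat3 lies 1350 bases beyond the end of Stat5a, on the other strand.

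Stat2 (ENSRNOG00000031081, chr7:2691369-2707741, plus strand, Rnor_6.0), a factor of interferon signalling, had 59.5, 65.1 and 95.8 CPM in young 3, 13 and 15. In aged 3, 4 and 7 it had 76.9, 72.7 and 56.1 CPM, inside the range of the young hearts except for aged 7. Its log2 fold change was -0.10 (standard error 0.246, 95% interval -0.69 to 0.49, unadjusted p = 0.696, adjusted p = 0.782, edgeR). The sign of this difference turned without young 15 (0.17), without aged 7 (0.031) and with library totals (0.29).

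**Figure D2:**
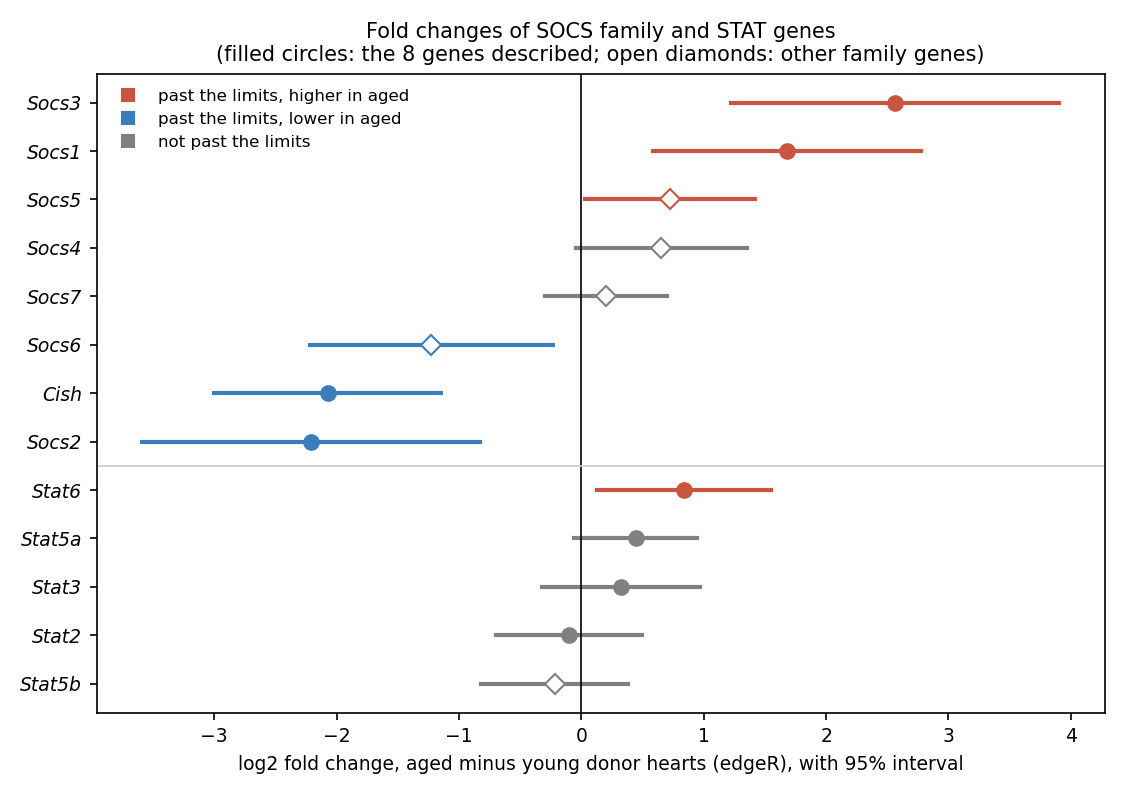
Log2 fold change of aged minus young donor hearts (x axis) with its 95% interval from edgeR, for the SOCS family above the line and the STAT family below it (y axis). Red marks genes past the limits and higher, blue past the limits and lower, and grey neither. The intervals of the SOCS members Socs3, Socs1, Cish and Socs2 lie clear of 0, while those of Stat2, Stat3 and Stat5a cross it.

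The abundance of the members was compared as CPM per kilobase of gene length. In young donor hearts the order of the mean levels per kilobase was Stat3 (76.2), Socs2 (50.9), Stat2 (18.3), Socs3 (17.1), Stat6 (15.9), Cish (12.4), Stat5a (7.46) and Socs1 (1.02). Neighbours in this order overlapped in range except Stat5a and Socs1. In aged donor hearts the order was Socs3 (101.6), Stat3 (95.6), Stat6 (28.4), Stat2 (17.0), Socs2 (11.0), Stat5a (10.1), Socs1 (3.30) and Cish (2.94). Here the ranges overlapped for Socs3 and Stat3, for Socs2 and Stat5a, and for Socs1 and Cish. Socs3 thus stood level with Stat3, within their spread, in aged hearts, while Cish and Socs1, apart in young hearts, were of like level.

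The makeup of the SOCS family was taken as the share of each of 8 genes in the family's counts per kilobase within a heart, which does not depend on the scaling of libraries. Socs3 made up 6.62%, 6.51% and 30.0% of the family in young 3, 13 and 15, and 58.6%, 51.1% and 61.6% in aged 3, 4 and 7. Per kilobase, it was the leading SOCS gene in all 6 hearts except young 3 and 13, where Socs2 led. By reads not divided by length, Socs5 exceeded Socs3 in every heart, with 3996 against 2790 reads in aged 3. Socs2 made up 49.3%, 44.2% and 14.1% in the young and 7.24%, 6.53% and 5.20% in the aged hearts. The share of Cish was 9.37%, 11.1% and 6.44% against 1.22%, 2.09% and 1.79%. Socs1 remained a small part, with 0.793% ± 0.318 (SD, n = 3) against 1.88% ± 0.805 (SD, n = 3), a difference of 1.09 percentage points that was 0.63 without aged 3. None of these 4 shares overlapped between the groups (exact permutation test, two-sided, p = 0.1 for each, the smallest p possible). The family's summed level per kilobase overlapped between the groups, at 133.8 ± 24.0 in young and 175.9 ± 33.1 in aged hearts (SD, n = 3).

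The shares of the STAT genes were taken over the 5 genes reported here. Stat3 made up 52.1% ± 2.54 in young and 54.4% ± 10.4 in aged hearts (SD, n = 3, exact permutation test, two-sided, p = 0.7), and this difference turned to -2.70 percentage points without aged 7. The shares of Stat6 were 10.8% ± 2.0 and 16.3% ± 4.52 (SD, n = 3, exact permutation test, two-sided, p = 0.2), and the difference of 5.48 percentage points was 2.98 without aged 3. Those of Stat5a were 5.14% ± 0.336 and 5.81% ± 1.39 (SD, n = 3, exact permutation test, two-sided, p = 0.5), a difference that turned to -0.016 percentage points without aged 3. The groups overlapped in these 3 shares. Stat2 made up 11.3%, 11.3% and 14.5% in young 3, 13 and 15 and 11.0%, 10.5% and 7.78% in aged 3, 4 and 7, so its share did not overlap, though aged 3 lay close to young 3 and 13 (exact permutation test, two-sided, p = 0.1). The difference of -2.65 percentage points was -1.58 without young 15 and -1.67 without aged 7. Summed over the 5 genes, the level per kilobase was 145.8 ± 16.8 in young and 175.2 ± 3.48 in aged hearts (SD, n = 3), without overlap.

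**Figure D3:**
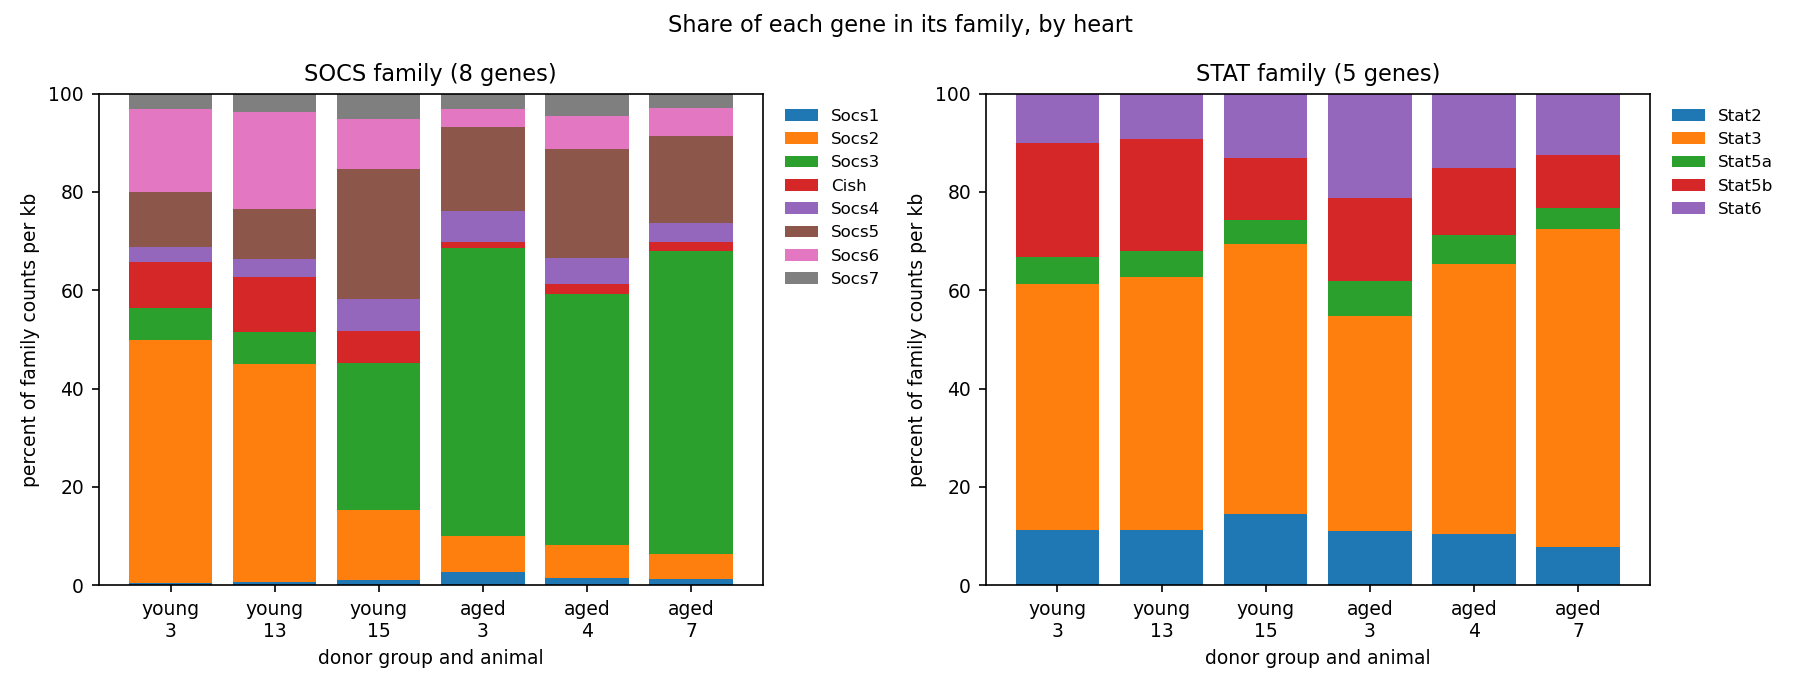
Percent of family counts per kilobase taken by each gene (y axis) in each heart (x axis), for 8 SOCS family genes on the left and 5 STAT genes on the right. Socs3 takes 51.1% to 61.6% of the SOCS family in the aged hearts, Socs2 takes 44.2% and 49.3% in young 13 and 3, and Stat3 is the largest part of the 5 STAT genes in every heart.

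Each inhibitor was also set against a STAT factor of its branch within the same heart. Socs3 had 28.1, 26.4 and 69.6 reads per 1000 reads of Stat3 in young 3, 13 and 15, and 272.4, 147.3 and 213.5 in aged 3, 4 and 7. The log2 ratio was 2.45 higher in aged hearts (exact permutation test, two-sided, p = 0.1, no overlap), which is 5.47-fold. Cish had 1661, 1972 and 775.3 reads per 1000 reads of Stat5a in the young and 156.2, 254.4 and 409.2 in the aged hearts. Cish reads thus outnumbered Stat5a reads in young 3 and 13, and were fewer in the other 4 hearts. Stat5b had more reads than Cish in every heart, with 1346 against 696 in young 3 and 1370 against 848 in young 13. The Stat5a counts are uncertain, as stated above. The difference in log2 ratio was -2.42 (exact permutation test, two-sided, p = 0.1, no overlap). Socs2 had 3921, 3514 and 760.6 reads per 1000 reads of Stat5a in the young hearts against 414.6, 357.2 and 534.3, a difference of -2.35 (exact permutation test, two-sided, p = 0.1, no overlap) that was -3.11 without young 15. Socs1 had 16.9, 28.1 and 17.8 reads per 1000 reads of Stat6 in the young and 43.5, 27.3 and 37.0 in the aged hearts. This ratio overlapped between the groups, with a difference of 0.74 (exact permutation test, two-sided, p = 0.2).

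**Figure D4:**
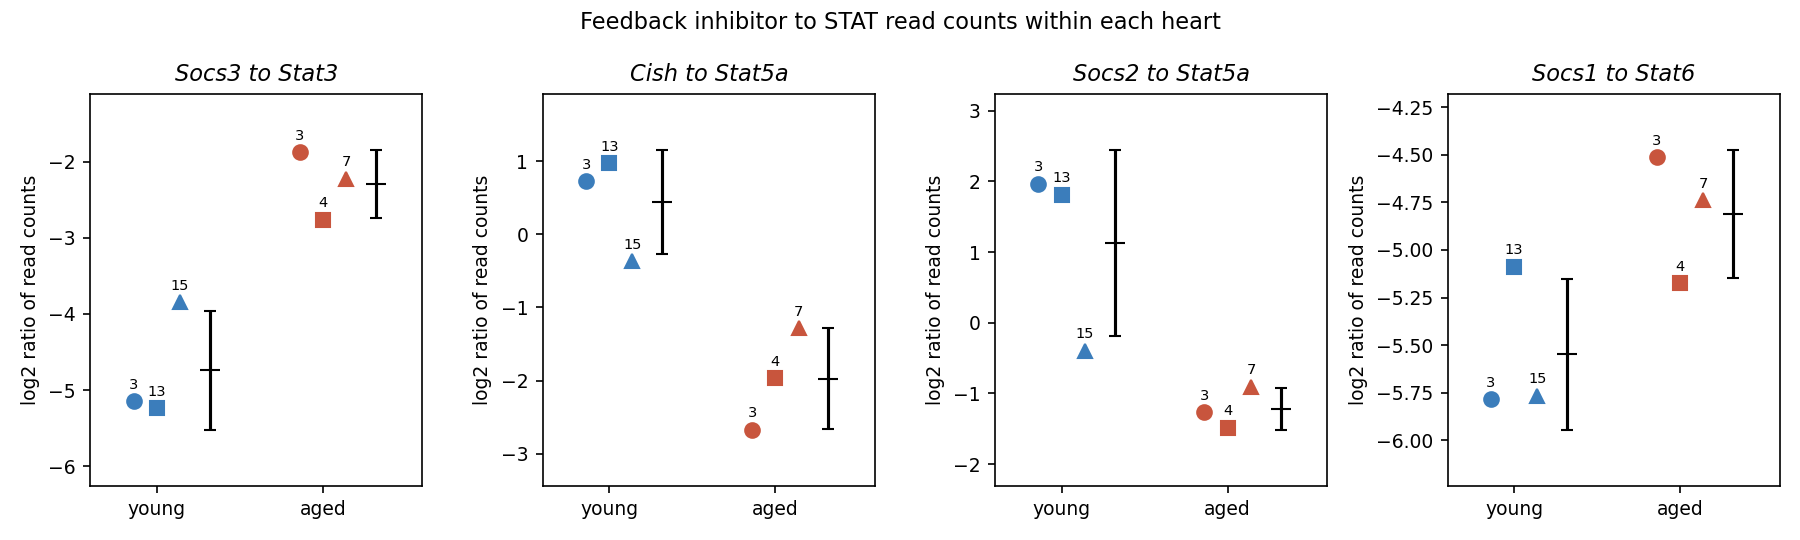
Log2 ratio of inhibitor to STAT read counts within a heart (y axis) by donor group (x axis), for Socs3 to Stat3, Cish to Stat5a, Socs2 to Stat5a and Socs1 to Stat6. Points are hearts with their animal number and bars the mean ± SD of 3 hearts. The groups are apart in the first 3 ratios and overlap in Socs1 to Stat6, where young 13 lies above aged 4.

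Of the other genes of the 2 families, 5 are described here. Beside the counts given here and for the lists that follow, 13.2% of all genes tested rose and 19.0% fell. Socs5 had 67.4, 65.3 and 120.4 CPM in the young and 131.2, 132.2 and 154.8 CPM in the aged hearts, a log2 fold change of 0.72 past the limits. Socs6 had 70.5, 88.9 and 31.5 CPM against 19.9, 27.7 and 33.9 CPM, a log2 fold change of -1.23 past the limits, though young 15 lay below aged 7. Socs4 (0.65), Socs7 (0.20) and Stat5b (-0.22) did not pass. Of these 5 genes, 1 rose and 1 fell, and both calls were lost without young 3, young 13, aged 3 or aged 4, and the Socs5 call also without aged 7. With library totals in place of TMM, 2 of the 5 rose and 0 fell. Of the 4 JAK kinases, which phosphorylate the STAT proteins, 3 rose. They were Jak2, from 64.8 ± 53.9 to 173.3 ± 41.0 CPM (SD, n = 3), Jak3, from 21.6 ± 4.83 to 33.6 ± 5.01 CPM (SD, n = 3), and Tyk2, from 47.2 ± 10.8 to 71.6 ± 6.19 CPM (SD, n = 3). Jak1 was at 287.1 ± 24.2 and 321.5 ± 32.9 CPM (SD, n = 3) and did not pass. The count of 3 was 0 without young 3, young 13, aged 3 or aged 4, and 2 without aged 7.

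Among 10 inhibitors of STAT signalling from other families (the Pias proteins, phosphatases and an adaptor), 3 rose and 0 fell, with a median log2 fold change of 0.26. These were the phosphatases Ptpn1 (0.93) and Ptpn2 (1.06), which remove phosphate from JAK kinases and STAT proteins, and Ptprc (2.01), the leukocyte common antigen. Leaving out any 1 heart other than young 15 gave a count of 2, and leaving out young 15 gave 4.

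Upstream, the ligands of gp130 receptors rose at low levels. Of 9 genes 8 were tested, 5 rose and 1 fell, and the median log2 fold change was 2.35. Il6, the best known of these ligands, had 0, 0 and 10 reads in young 3, 13 and 15 and 94, 26 and 213 reads in aged 3, 4 and 7. Il11 had 5, 2 and 27 reads against 68, 72 and 255, a log2 fold change of 3.18. Lif (2.78) and Osm (2.65) also rose. In Il11 and Lif, as in Il6 and Socs3, aged 7 was the highest heart. Osm was instead highest in aged 3, with 11.3, 6.03 and 5.94 CPM in aged 3, 4 and 7, so the ligands did not share 1 order. The fall belonged to Ctf1 (cardiotrophin, -1.34), which was named after its value was seen, and which did not pass without young 3, young 13, aged 3 or aged 4.

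The receptors were divided. Of 6 gp130 family receptors, 2 rose and 2 fell, and the median log2 fold change was 0.059. Il6r rose from 28.6 ± 16.6 to 108.8 ± 34.8 CPM (SD, n = 3) and Osmr from 45.3 ± 38.2 to 154.3 ± 43.6 CPM (SD, n = 3). Il11ra1 fell from 71.0 ± 8.91 to 31.6 ± 9.97 CPM (SD, n = 3). Without young 3, young 13, aged 3 or aged 7, 1 rose and 1 fell. The list of receptors that use the common gamma or beta chain had 13 genes, 12 of them tested, with 7 higher, 1 lower and a median of 1.37. The 1 lower call was lost without young 3, young 13, aged 4 or aged 7 and with limma-voom or library totals, and without young 15 there were 2. Csf2rb (2.78), Il7r (2.29), Csf2ra (2.27) and Il4r (1.96), the receptor upstream of Stat6, led it. Il4r stood at 58.3, 60.0 and 170.3 CPM in the young and 518.3, 273.1 and 332.9 CPM in the aged hearts. Aged 3 was the highest heart in Il4r, as in Stat6 and Socs1. It was also the highest in Il6r, Osmr, Csf2rb, Il7r, Csf2ra, Il10ra and Ifngr2, so this order was not particular to Il4r. Of 9 tested receptors of interferons, interleukin 10 and interleukin 12, 4 rose and 1 fell (median 0.48), led by Il10ra (2.35) and Ifngr2 (1.14). With library totals in place of TMM, 7 rose and 0 fell.

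Ghr, the growth hormone receptor that lies upstream of Stat5, Cish and Socs2, fell, as did Cish and Socs2 but not Stat5a or Stat5b. It had 221.4, 222.1 and 67.4 CPM in young 3, 13 and 15, and 23.8, 33.7 and 38.7 CPM in aged 3, 4 and 7. The groups did not overlap and young 15 lay nearest the aged hearts, as in Cish and Socs2 and also in the cardiomyocyte sum. Whether the fall of Ghr has a part in those of Cish and Socs2 was not tested. The log2 fold change was -2.41 (standard error 0.496, unadjusted p = 0.002, adjusted p = 0.0916, edgeR). Of the 6 receptors of this class 4 were tested. The other one past the limits was Csf3r (4.06), a neutrophil receptor, whose call was lost without young 13, aged 3 or aged 7.

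Known target genes were counted by factor. Of 13 tested STAT3 targets 9 rose and 0 fell, against 13.2% and 19.0% of all genes tested, with a median log2 fold change of 1.80. Stat3 mRNA itself did not pass the limits. STAT3 activity was not measured, and the part of cell makeup in this count was not tested. Lrg1, an acute phase glycoprotein, rose from 26.8 ± 7.63 to 243.1 ± 112.6 CPM (log2 fold change 3.18), Lcn2 from 10.2 ± 1.07 to 53.4 ± 31.1 CPM (2.39), and Junb, an early response factor, from 65.2 ± 51.7 to 255.5 ± 43.1 CPM (1.97), with SD and n = 3 for each. The count ran from 6 without young 3 to 12 without young 15. Lcn2 is also on the neutrophil list, and Osmr and Il4r are also on the receptor lists. Of 7 tested STAT5 targets 2 rose, Osm (2.65) and Bcl6 (1.21), and 0 fell, with a median of 0.51. The count was 1 without young 3 or aged 7, 3 without aged 4 and 4 without young 15, and Cish and Socs2 were not on that list. Osm is also on the list of gp130 ligands. Genes that STAT5 induces and genes that it represses were not separated in this count, so it gives no direction of STAT5 activity.

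Stat2 signals to interferon response genes, and these showed no common direction. Of 12, 1 rose (Ifit3, 2.35) and 2 fell (Mx2, -2.81, and Usp18, -0.69), with a median of -0.064. Without young 15, 5 rose and 1 fell, and without young 3, young 13 or aged 3 the rise of Ifit3 was lost. Of 5 tested STAT6 targets, 3 rose and 1 fell. Arg1, the arginase of interleukin 4 activated macrophages, had 11, 35 and 302 reads in the young and 5881, 3020 and 2205 in the aged hearts, a log2 fold change of 4.65, and the other 2 rises were Il4r and Mrc1. Mrc1 overlapped between the groups and was named, as was Fcer2, after the values were seen. Fcer2, the 1 that fell, had 843 and 629 reads in young 3 and 13 and 3 to 15 in the other 4 hearts. Of 4 tested STAT4 targets, Il18rap rose (2.78) and Il12rb2 fell (-1.05).

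**Figure D5:**
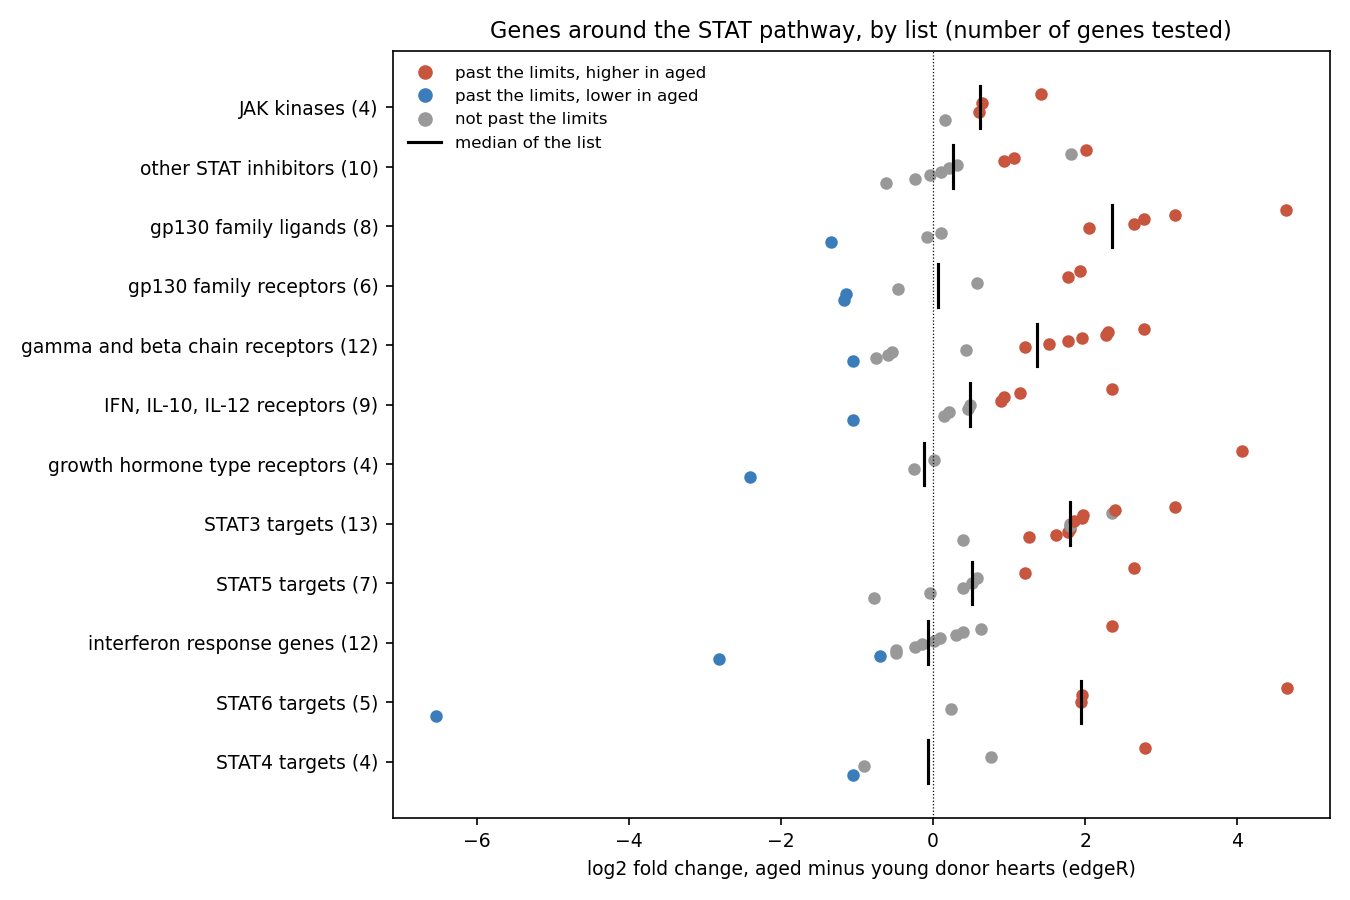
Log2 fold change of aged minus young donor hearts (x axis) for every tested gene of 12 lists around the STAT pathway (y axis, number tested in brackets). Red points are past the limits and higher, blue past the limits and lower, grey neither, and the bar is the list's median. The medians are 2.35 for gp130 ligands and 1.80 for STAT3 targets, and lie near 0 for gp130 receptors and interferon response genes.

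Marker lists of some of the cell types in the tissue also held genes past the limits. The neutrophil list had 8 of 10 genes higher, the macrophage list 5 of 9 with summed levels of 287.9 to 945.8 CPM in young and 977.2 to 2340 CPM in aged hearts, and the cardiomyocyte list 4 of 10 lower. The fibroblast list had 2 of 6 genes lower, with sums of 6253 to 7810 CPM in young and 2020 to 4146 CPM in aged hearts. The T and NK cell list had 1 of 8 tested genes higher, Cd2. Its sums over all 12 genes were 31.9 to 84.9 CPM in young and 106.5 to 158.0 CPM in aged hearts. Cd8a had 2.42, 0.890 and 55.8 CPM in the young and 99.0, 88.3 and 63.8 CPM in the aged hearts. Cd2, Cd8a and Cd8b did not overlap between the groups, whereas Cd3e, Cd3g, Cd4, Nkg7 and Cd247 overlapped. Endothelial (1090 to 1566 and 874.9 to 1368 CPM), smooth muscle (271.5 to 445.7 and 247.6 to 410.5 CPM), B cell (0.991 to 3.12 and 0.986 to 6.90 CPM) and erythroid sums (127.3 to 1112 and 48.3 to 603.7 CPM) overlapped, with 0 genes past the limits. In none of the lists was a marker at 0 in all hearts. Aged 3 had the highest neutrophil sum, Socs1, Stat5a and Stat6, the lowest cardiomyocyte sum and the lowest Cish, whereas Socs3 was highest in aged 7. Among the aged hearts, aged 3 also had the highest Socs2 and Stat2 and the lowest Stat3, so the members did not share 1 order. Without young 15, 9 of the macrophage and 10 of the neutrophil markers were higher, and without young 3, young 13 or aged 3 the macrophage count was 2, as it was without aged 4. The neutrophil count was 4 without young 13, aged 3 or aged 7. The cardiomyocyte count ran from 1 without aged 7 to 8 without aged 3, the fibroblast count was 0 without young 3 or aged 7, and the T and NK cell count was 3 without young 15. The part of cell makeup in the results for the STAT and SOCS genes was not tested.

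The members were last compared by their pattern over the 6 hearts, as the root mean square difference of centred log2 CPM, among 12957 genes. Within the members, Stat5a and Stat6 were most alike (0.298), Socs2 and Cish lay 0.494 apart, and Socs2 and Socs3 were farthest apart (2.69). The genes closest to Socs3 were Tac4 (0.165) and Fosl1 (0.218), and those closest to Socs1 were Sema6b (0.179) and Stk10 (0.184). Socs2 was followed most closely by Pecr (0.118) and Ntf3 (0.123), and Cish by Spata24 (0.10) and Slc4a4 (0.138). For Stat2 the closest were Adamts14 (0.050) and Cdk5rap2 (0.063), and for Stat3 Cdv3 and Kdsr (0.074 each). Dbnl (0.039) and Dtnb (0.044) lay closest to Stat5a, and AABR07069219.1 (0.064) and Rab5c (0.066) to Stat6. The log2 CPM was centred but not scaled by its spread, so genes that vary little lie close together and large opposite changes lie far apart. These values are a description over 6 hearts.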

How the data were processed

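Polyadenylated RNA of 6 donor hearts was sequenced in paired reads. Per the submitters' processing notes, the tools included HISAT2 2.0.5, StringTie 1.3.3b, featureCounts 1.5.0-p3 and DESeq2 1.16.1, with the build Rnor_6.0, and how strand and shared reads were handled is not given in the sources used here. The authors deposited raw counts per gene, without normalization, and FPKM values. All 48 deposited FPKM values of the members equalled the count over gene length and library total (relative tolerance 0.001), and tests used the counts.

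Genes were kept by filterByExpr, scaled by TMM and tested with edgeR 4.0.16 (glmQLFit and glmQLFTest, no covariates) in R 4.3.3, with Benjamini-Hochberg adjustment. Standard errors are log2 fold changes over the square root of F, and log2 CPM used a prior count of 2. Single values were compared by two-sided exact permutation tests in scipy 1.17.1. Log2 ratios of counts used a pseudocount of 1. Young 3 and 13, the most similar pair, had a chi-square of 10.2 for each degree of freedom across 13357 genes, which is more than sampling noise gives. The other pairs within a group had 75.0 to 529.1. This value cannot show how far young 3 and 13 are independent, and all hearts were kept as replicates. A floor of 3 counts corresponds to 0.0985 to 0.191 CPM, for counting error only.

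All members were named. Of each other list, at most 4 genes past the limits without overlap were named by size of change, with every JAK kinase and remaining family gene, and for each member the 2 genes of mean CPM at least 1 most like it. The members and lists were chosen with earlier results of these data known, so no list is independent evidence. A family gene that the rule would name is not reported here, and the STAT family shares leave it out. Il27, Il5ra, Il23r, Prlr, Lepr, Fgg, Fgb, Igfals, Retnla, Ccl17, Ccl22 and Ifng did not pass the filter, and Mcl1 and Serpina3n were not analysed here. Of the markers, Ttn, Pecam1, Col1a2, Hba1 and Hba2 were not analysed here. Cd3d, Cd5, Gzmb, Klrb1 and Ms4a1 did not pass the filter but are part of the sums. The T and NK cell and fibroblast markers not past the limits were named after their values were seen. Scripts were tested on simulated data. Alternatives were DESeq2 1.42.0 and its size factors, limma-voom (limma 3.58.1), library totals, TMM without the 13 mitochondrial genome genes, other low-count filters and leaving out each heart.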

Additional observations from a re-analysis of the deposited data

How the results depend on the processing

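Socs1, Socs2, Socs3 and Cish kept their direction and side of the limits in all 13 alternatives tried on each member, and Stat2 and Stat3 stayed short of the limits in all of them. With the adjusted p in place of the unadjusted one, 0 members were higher and 0 lower, as were 0 and 0 of all genes (edgeR). With library totals, all genes gave 3147 higher and 1441 lower calls against 1815 and 2621 with TMM, and the median log2 fold change of all genes moved from 0.016 to 0.46, while the members gave counts within 1.5 times the original. With that scaling, the interferon, interleukin 10 and interleukin 12 receptors had 7 higher and 0 lower, and the STAT5 targets 4 higher. The fall of Socs6 and the falls among gp130 ligands, common chain receptors, STAT4 targets and fibroblast markers were lost. Leaving out 1 heart at a time gave 817 to 3802 higher and 1615 to 3412 lower genes, the most when young 15 was left out. Stat2 turned to 0.29 with library totals and ranged from -0.23 to 0.17 with 1 heart left out. With 1 heart left out, the difference in share of the STAT genes ranged from -2.70 to 7.73 percentage points for Stat3 and from -0.016 to 1.37 for Stat5a, and without division by length the differences of Socs3, Socs2 and Cish in the SOCS family moved to 22.4, -18.3 and -9.91 percentage points. Without that division a longer gene weighs more, and Socs3, Socs2 and Cish are 863, 1421 and 3169 bases long. The cause of the other shifts was not tested. All 28 alternatives of the 4 ratios kept their direction. No paired analysis was possible because the groups share only 1 animal number, which marks different animals. The p-values cover the spread between these 6 hearts, and Socs1 and Il6 are limited by their few reads.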
